A study of Homo sapiens with 8 samples.

Results

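The RSK kinases are encoded by *RPS6KA1* (RSK1), *RPS6KA3* (RSK2), *RPS6KA2* (RSK3) and *RPS6KA6* (RSK4), and these 4 of the 1420 genes targeted in a pooled CRISPR knockout screen are described here. Their rows were taken by gene name, as every row of the sgRNA table that carries 1 of these symbols, which gave 28 of 10429 sgRNAs, 7 against each gene. The family was chosen with earlier results of these data known. The screen was run in COV362, an established human high-grade serous ovarian cancer cell line labelled wild type, in a derivative made platinum resistant (Pt-resistant) by repeated rounds of cisplatin. All cells carried Cas9 and a library of sgRNAs against druggable proteins, and were selected with puromycin. They were fixed, stained for PRMT5, the main enzyme that places symmetric dimethyl marks on arginine, and sorted into a population with high staining (PRMT5hi, 4 libraries) and a population with low staining (PRMT5lo, 4 libraries). No treatment, time or genotype separated the populations. The replicates were split only after transduction and selection of 1 culture, so they are cultures of the same edited cells, and the values given are the authors' means over the 4 libraries of a population.

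RSKs are serine/threonine kinases at the end of the RAS-RAF-MEK-ERK cascade. ERK binds the C-terminal tail of an RSK and phosphorylates it, the C-terminal kinase domain then phosphorylates the linker, and PDPK1 docks there and switches on the N-terminal kinase domain, which acts on substrates in translation, survival and transcription. The 4 paralogs share this layout and overlap in their substrates, and RSK4 is known for activity that depends less on growth factors. The library was delivered at a low ratio of virus to cells, so most transduced cells should carry a single sgRNA. In a cell with an RSK sgRNA, 1 paralog was then targeted by design and the other 3 were not. In this design a gene whose loss lowers PRMT5 staining gains sgRNAs in PRMT5lo, and a gene whose loss raises it gains sgRNAs in PRMT5hi. The assay counts sgRNAs in genomic DNA, so neither the expression of the RSK genes in COV362 nor the share of alleles cut was measured.

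In GRCh38.p14, *RPS6KA1* lies at chr1:26529761-26575025, *RPS6KA2* at chr6:166409364-166862773, *RPS6KA3* at chrX:20149911-20267097 and *RPS6KA6* at chrX:84058346-84188499. The genes thus span between 45265 bases (*RPS6KA1*) and 453410 bases (*RPS6KA2*). The cut sites within them were not used here.

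Depth was 16166859 reads over the PRMT5hi libraries and 19117396 over the PRMT5lo libraries, or 388 and 458 reads per sgRNA and library. The 28 RSK sgRNAs ranged from 34.5 to 297 CPM (an sgRNA's reads scaled to a common library size) in PRMT5hi and from 36.1 to 289 CPM in PRMT5lo, around a median of 85.0 and 84.9 CPM over all targeting sgRNAs. The least abundant of them, RPS6KA6_7, still had 556 reads in PRMT5hi and 693 in PRMT5lo, and no RSK sgRNA was near 0. Intervals cover counting error and the spread between libraries that the authors' variances hold.

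Change is given throughout as the log2 ratio of CPM + 1 in PRMT5lo over CPM + 1 in PRMT5hi, which is positive where an sgRNA was more abundant in cells with low PRMT5. Which population each column holds was read from the sign in the study's legend, while its methods give the sign the other way round. A separate measure, the study's blots of *FER*-depleted cells, in which PRMT5 was lower, runs the way this reading does. Under it *FER*, a tyrosine kinase gene looked up for this purpose, was called toward PRMT5lo with a mean ratio of 0.35. No RSK gene was called in either direction, where a call needed a one-sided p under 0.01 by Fisher's combination of beta-binomial tests of the sgRNAs and a mean ratio beyond 0.25. Over all genes 10 were called toward PRMT5lo (0.704%) and 12 toward PRMT5hi (0.845%). The mean ratio was above 0 for *RPS6KA2*, *RPS6KA3* and *RPS6KA6* and below 0 for *RPS6KA1*, within -0.10 to 0.11. At an unadjusted one-sided p under 0.05, 1 of the 4 genes (*RPS6KA3*, toward PRMT5lo) passed, against 122 of all 1420 genes in that direction (8.59%).

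The 7 sgRNAs against *RPS6KA1*, which encodes RSK1, had the highest mean abundance of the family, though single ones ran from 46.4 to 297 CPM in PRMT5hi. RPS6KA1_1 stood at 46.4 CPM in PRMT5hi and 50.7 CPM in PRMT5lo, and RPS6KA1_3 at 159 and 178 CPM. These were the only members of the set with more CPM in PRMT5lo. The other 5 were lower there, led by RPS6KA1_4 (135 and 96.0 CPM, log2 ratio -0.49) and RPS6KA1_6 (241 and 198 CPM, -0.28). RPS6KA1_2 (258 and 231 CPM), RPS6KA1_5 (297 and 289 CPM) and RPS6KA1_7 (92.8 and 91.1 CPM) lay closer to no change. The mean over the gene was 176 CPM in PRMT5hi and 162 CPM in PRMT5lo, and the mean log2 ratio was -0.10 (SD 0.23 over sgRNAs), with a 95% interval of -0.27 to 0.06. Toward PRMT5hi the one-sided p was 0.228 (0.807 after Benjamini-Hochberg adjustment over 1420 genes), so the change was within the error. No single sgRNA passed p under 0.05, and RPS6KA1_4 was closest at 0.0929.

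*RPS6KA2*, which encodes RSK3, had the tightest set. Higher in PRMT5lo were 5 of its sgRNAs, RPS6KA2_1 (159 to 192 CPM, log2 ratio 0.26), RPS6KA2_2 (142 to 160 CPM, 0.17), RPS6KA2_7 (42.2 to 46.0 CPM, 0.12), RPS6KA2_3 (135 to 141 CPM, 0.06) and RPS6KA2_4 (72.6 to 75.6 CPM, 0.06). RPS6KA2_5 (166 and 161 CPM) and RPS6KA2_6 (134 and 119 CPM) were lower. The SD over the sgRNAs, 0.14, ranked 86 of 1420 genes from the least spread. The mean ratio was 0.07, and its 95% interval of -0.07 to 0.21 held 0 and ended below the limit of 0.25 used for a call. Toward PRMT5lo the one-sided p was 0.244 (adjusted 0.878), and no sgRNA passed on its own.

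*RPS6KA3*, whose loss in people causes Coffin-Lowry syndrome, had the lowest p of the family and the widest spread. RPS6KA3_6 went from 69.5 CPM in PRMT5hi to 98.7 CPM in PRMT5lo (log2 ratio 0.50), RPS6KA3_3 from 83.5 to 108 CPM (0.36) and RPS6KA3_1 from 93.0 to 109 CPM (0.23). RPS6KA3_2 (171 to 193 CPM, 0.18) and RPS6KA3_7 (74.4 to 75.6 CPM, 0.02) were also higher, so 5 of 7 were above 0. RPS6KA3_4 (81.8 and 73.7 CPM, -0.15) and RPS6KA3_5 (90.1 and 71.0 CPM, -0.34) went the other way, and the ratios within this gene thus ran from -0.34 to 0.50. The gene averaged 94.7 CPM in PRMT5hi and 104 CPM in PRMT5lo, a mean ratio of 0.11 (SD 0.29) with a 95% interval of -0.07 to 0.30. Its one-sided p toward PRMT5lo was 0.00753, rank 30 of 1420, and 0.322 after adjustment. It passed the limit on p, as 42 genes did (2.96%), but missed the limit on the mean, where it ranked 211.

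*RPS6KA6*, which encodes RSK4, lay between the other X-linked paralog and *RPS6KA2*. RPS6KA6_5 stood at 138 CPM in PRMT5hi and 178 CPM in PRMT5lo (0.37), RPS6KA6_6 at 176 and 210 CPM (0.25) and RPS6KA6_3 at 98.0 and 114 CPM (0.21). RPS6KA6_7, the least abundant at 34.5 and 36.1 CPM, had a ratio of 0.07. The other 3 were lower in PRMT5lo, namely RPS6KA6_1 (98.8 and 94.0 CPM), RPS6KA6_2 (173 and 157 CPM) and RPS6KA6_4 (52.5 and 50.0 CPM). With 4 of 7 above 0, the mean ratio was 0.09 (SD 0.19), with a 95% interval of -0.09 to 0.26. The one-sided p toward PRMT5lo was 0.125 (adjusted 0.774).

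**Figure D1:**
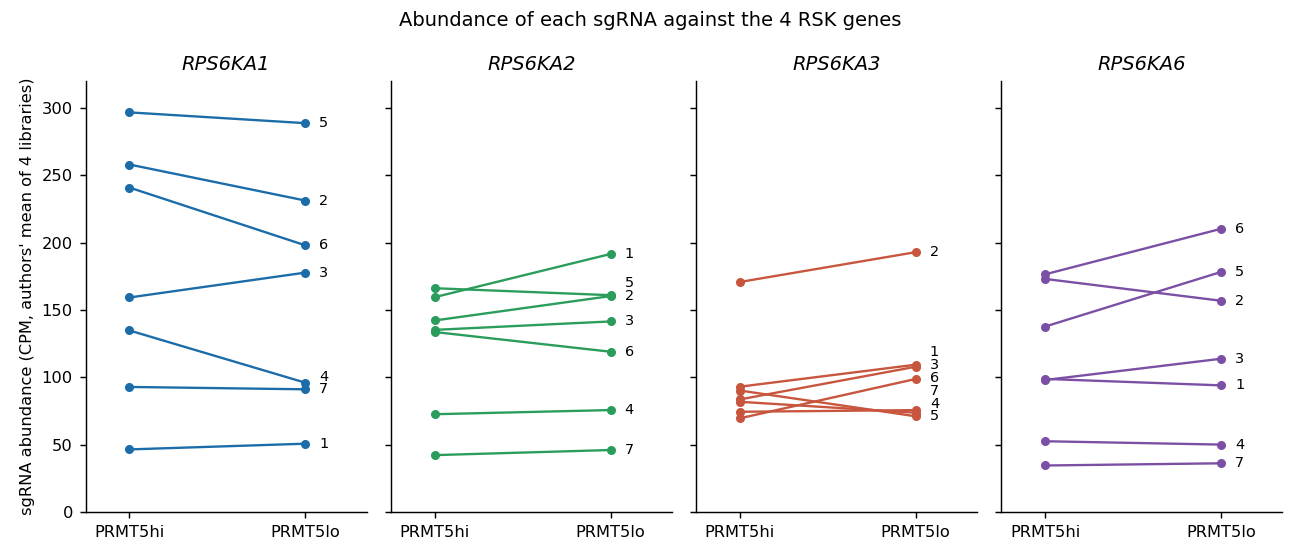
Abundance of the 28 sgRNAs against the RSK genes, 1 panel per gene. The vertical axis is CPM. Each line joins the authors' mean of the 4 PRMT5hi libraries with that of the 4 PRMT5lo libraries for 1 sgRNA. No error bars are drawn. Most lines are close to level, *RPS6KA1* reaches the highest CPM (297 for RPS6KA1_5), and only its lines mostly slope down toward PRMT5lo.

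Read sgRNA by sgRNA, 16 of the 28 RSK ratios were above 0 (57.1%), against 49.8% of targeting and 51.8% of control sgRNAs. Among genes with 7 sgRNAs, 22.2% had at least 5 above 0, as *RPS6KA2* and *RPS6KA3* did, 48.3% had at least 4, as *RPS6KA6* did, and 22.6% had at most 2, as *RPS6KA1* did. The mean ratio of the 28 was 0.04 (SD 0.23), beside an SD of 0.29 over targeting and 0.25 over control sgRNAs. The central 95% of control sgRNAs ran from -0.48 to 0.49, and only RPS6KA3_6 lay above it and RPS6KA1_4 below it. These are 7.14% of the RSK sgRNAs, against 9.45% of all targeting sgRNAs, so the family's sgRNAs left the control range no more often than the library's.

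**Figure D2:**
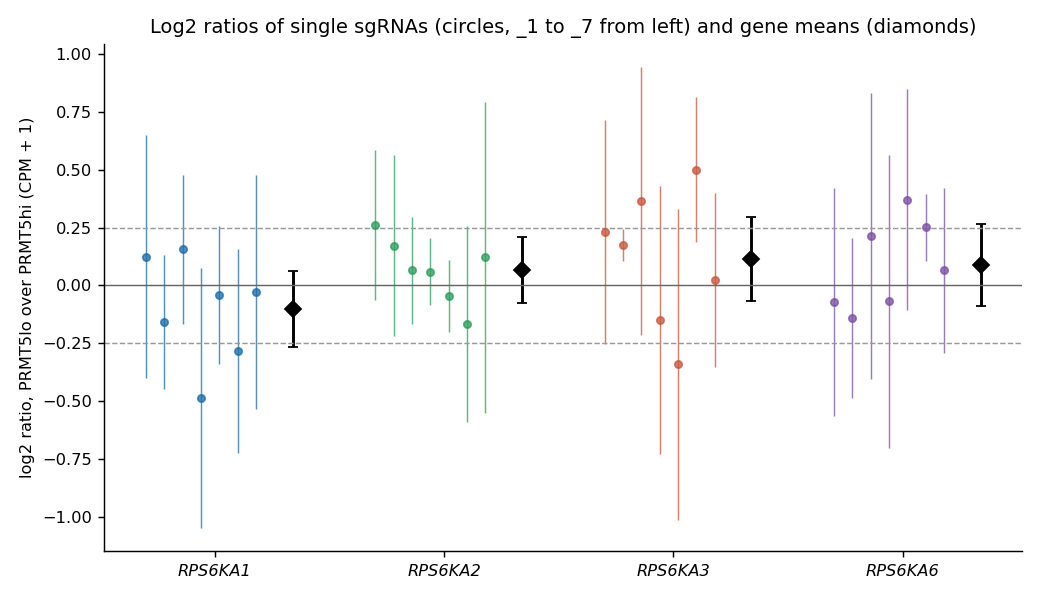
Log2 ratio of PRMT5lo over PRMT5hi for each sgRNA (circles with the 95% interval, _1 to _7 from left) and the mean of each RSK gene (diamonds with the 95% interval). All 4 gene intervals hold 0, with means of -0.10, 0.07, 0.11 and 0.09, while single sgRNAs spread from -0.49 to 0.50.

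Toward PRMT5lo, 3 of the 28 sgRNAs had a one-sided p under 0.05 (10.7%, against 5.66% of targeting sgRNAs and 9.0% of the 500 control sgRNAs, which target no gene), and toward PRMT5hi 0 did (against 6.0%). By this t test on the authors' beta-binomial variances the 3 were RPS6KA3_2 (p = 0.00122), RPS6KA6_6 (p = 0.0189) and RPS6KA3_6 (p = 0.0337). None passed after adjustment over all targeting sgRNAs, with a lowest adjusted p of 0.251 toward PRMT5lo and 0.885 toward PRMT5hi, where 4 and 0 of 9929 passed 0.05. All 3 had, in at least 1 population, the smallest variance the authors' method allows, that of counting error alone, as 10 of the 28 RSK sgRNAs (35.7%) and 27.0% of targeting sgRNAs did. When the variance in the beta-binomial test was instead taken from sgRNAs of like abundance, RPS6KA3_6 (p = 0.0361) and RPS6KA6_5 (p = 0.0293) passed toward PRMT5lo (4.70% of targeting sgRNAs). RPS6KA1_4 (p = 0.0275) and RPS6KA1_6 (p = 0.0374) then passed toward PRMT5hi (4.51%) by the same beta-binomial test.

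**Figure D3:**
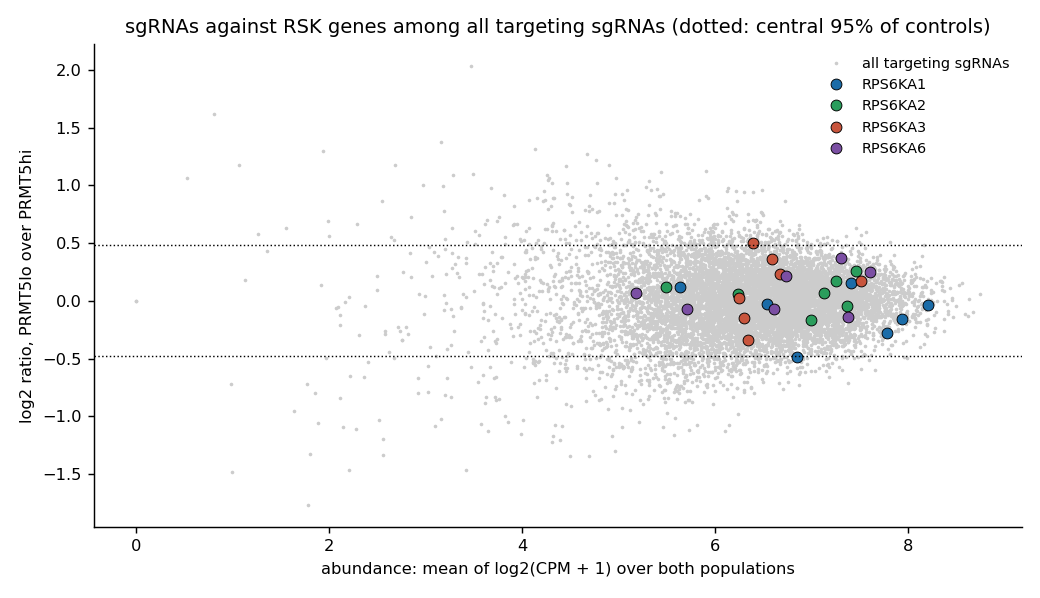
Log2 ratio of PRMT5lo over PRMT5hi against the abundance of each sgRNA, as log2(CPM + 1) averaged over the populations, with RSK sgRNAs coloured by gene over all targeting sgRNAs in grey. Dotted lines bound the central 95% of control sgRNAs, and RPS6KA3_6 (0.50) and RPS6KA1_4 (-0.49) are the RSK sgRNAs just outside them.

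The p of *RPS6KA3* rested on RPS6KA3_2, whose ratio of 0.18 was only the fourth highest of the gene. Its share was 171 CPM with an SE of 3.24 CPM in PRMT5hi and 193 CPM with an SE of 3.17 CPM in PRMT5lo. Both values are the smallest allowed, which held for 241 targeting sgRNAs (2.43%) and for no other RSK sgRNA. Without RPS6KA3_2 the gene's p toward PRMT5lo was 0.164 and its mean ratio 0.10, whereas without RPS6KA3_6, the sgRNA with the largest ratio, p was 0.0256 and the mean 0.05. Leaving out RPS6KA3_5 instead gave a mean of 0.19 and the lowest p, 0.00322. With variances from sgRNAs of like abundance the t test gave RPS6KA3_2 alone p = 0.127, and Fisher's combination gave the gene p = 0.0771 (adjusted 0.981). Stouffer's combination gave 0.0190.

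For the other paralogs no single sgRNA moved the gene past the limit on p. The mean of *RPS6KA6* ranged from 0.04 to 0.13 and its p toward PRMT5lo from 0.0737 to 0.427, the last without RPS6KA6_6. *RPS6KA2* ranged from 0.03 to 0.11 with p from 0.162 to 0.438. *RPS6KA1* stayed below 0, from -0.14 to -0.04, with p toward PRMT5hi from 0.146 to 0.383. The sign of each gene's mean was therefore kept whichever sgRNA was left out.

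**Figure D4:**
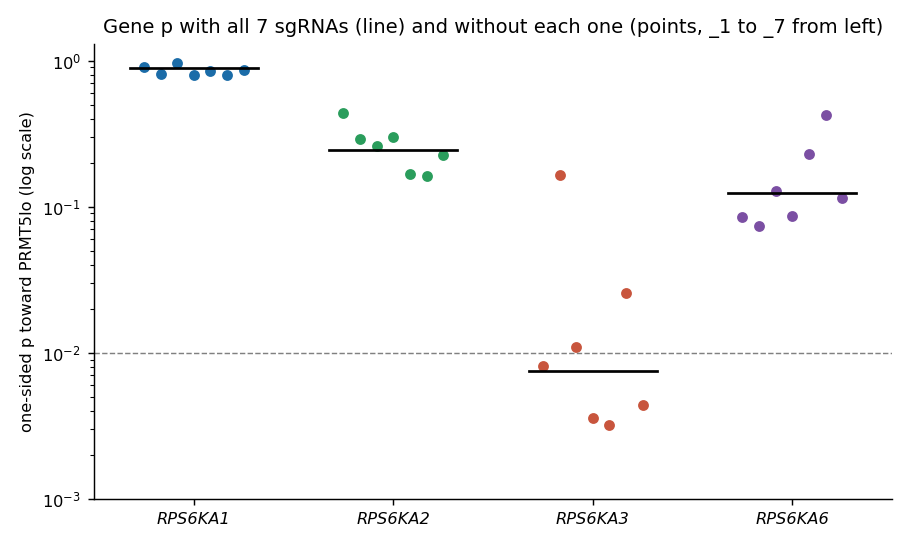
One-sided p toward PRMT5lo of each RSK gene (log axis) with all 7 sgRNAs (line) and without each sgRNA in turn (points, _1 to _7 from left). This direction is used also for *RPS6KA1*, whose mean is below 0. *RPS6KA3* moves from 0.00753 to 0.164 without RPS6KA3_2, and the points of the other 3 genes stay above 0.05.

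The paralogs were then compared with each other in 6 pairs, as differences of their mean log2 ratios with 95% intervals from the authors' variances, treating the errors of different sgRNAs as independent. *RPS6KA1* lay below *RPS6KA3*, with a difference of -0.22 and an interval of -0.46 to 0.03. Its difference from *RPS6KA6* was -0.19 (-0.43 to 0.05), and from *RPS6KA2* -0.17 (-0.39 to 0.05). All 3 intervals held 0, so the opposite sign of *RPS6KA1* was not larger than the error. With variances from sgRNAs of like abundance, 1 of the 6 intervals no longer held 0, that of *RPS6KA1* minus *RPS6KA3* (-0.42 to -0.01). Among the other 3 genes the differences were smaller, at -0.05 for *RPS6KA2* minus *RPS6KA3* (-0.28 to 0.18), -0.02 for *RPS6KA2* minus *RPS6KA6* (-0.25 to 0.20) and 0.03 for *RPS6KA3* minus *RPS6KA6* (-0.23 to 0.28). The order *RPS6KA3*, *RPS6KA6*, *RPS6KA2*, *RPS6KA1* has no neighbours that differ beyond their error.

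On the log2 scale the gene means of the paralogs lay further apart in abundance than in the ratio between populations. No error was put on the abundances, and sgRNAs of 1 gene varied widely. In PRMT5hi they ran from 46.4 to 297 CPM for *RPS6KA1* and from 34.5 to 176 CPM for *RPS6KA6*. On the scale of log2(CPM + 1), averaged over both populations, *RPS6KA1* ranked 12 of 1420 genes, *RPS6KA2* 148, *RPS6KA6* 356 and *RPS6KA3* 433. By mean CPM *RPS6KA1* ranked 5. Control sgRNAs averaged 130 CPM in PRMT5hi and 133 CPM in PRMT5lo, so the *RPS6KA1* set lay above the control mean and those of the other 3 RSK genes below it. Abundance combines the make-up of the delivered library with growth of the cells after it, which cannot be told apart here because only the sorted cells were used.

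The other genes of the pathway place these values. Upstream of RSK, where RAS, RAF, MEK and ERK relay the signal and PDPK1 completes activation, 7 of 8 genes had a mean ratio above 0, with a median of 0.16, and 3 were called toward PRMT5lo and 0 toward PRMT5hi. Over all 1420 genes 48.5% had a mean above 0, and 0.704% were called toward PRMT5lo and 0.845% toward PRMT5hi. The upstream list was chosen with earlier results known and holds *HRAS* and *BRAF*, already reported as hits by the study, and it was not tested as a set. *HRAS*, a RAS GTPase, had a mean ratio of 0.26 with 7 of 7 sgRNAs above 0 (beta-binomial p = 0.00375, adjusted 0.232). *BRAF*, the RAF kinase most often mutated in cancer, had 0.27 with 5 of 7 above 0 (beta-binomial p = 0.00894, adjusted 0.322). Neither call held with a pseudocount of 5 CPM, where the means were 0.23 and 0.246, under the limit on the mean, or with variances from sgRNAs of like abundance, where p was 0.0707 and 0.0106. The 3 upstream calls became 1 under each of these settings, and also 1 with the median over sgRNAs, which kept *BRAF* (0.39) and lost *HRAS* (0.13). The least abundant *HRAS* sgRNA had 13.7 CPM in PRMT5hi. With a minimum of 20 CPM the *HRAS* mean was 0.16, and centred on controls it was 0.246. Both settings lost *HRAS* and kept *BRAF*, whereas Stouffer's method and limma kept *HRAS* and lost *BRAF*. Means close to 0 were found for 4 of the genes. The MEK genes *MAP2K1* and *MAP2K2* had means of 0.00063 and 0.014, the ERK1 gene *MAPK3* 0.06 and *PDPK1* -0.0081. None of these 4 was called. For *PDPK1* the sgRNAs averaged only 45.0 and 47.0 CPM.

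Beside RSK, the MSK and MNK kinases are also switched on by ERK or p38, and 0 of their 4 genes were called. *MKNK1* had a mean ratio of 0.23 (beta-binomial p = 0.132), *RPS6KA4* 0.03, *MKNK2* 0.02 and *RPS6KA5* -0.06. The sgRNAs against *RPS6KA4*, which encodes MSK2, ran from -1.03 to 1.22, and their SD of 0.68 ranked 1414 of 1420 genes, against 0.14 to 0.29 for the RSK genes. They averaged only 50.3 CPM in PRMT5hi and 52.8 CPM in PRMT5lo, rank 1348 in abundance and below every RSK gene. Whether low counts set this spread was not tested. *RPS6KB1*, the S6 kinase of the mTOR branch, which shares the target S6 with RSK, had a mean of 0.29 with 7 of 7 sgRNAs above 0 (beta-binomial p = 0.0167, adjusted 0.378) and was not called. Of the RSK substrates, *GSK3A*, a glycogen synthase kinase that RSK inhibits by phosphorylation, had a mean of 0.26 (beta-binomial p = 0.0128, adjusted 0.339), and was not called. Its paralog *GSK3B* (-0.0090), the translation repressor gene *PDCD4* (-0.06), the death-associated kinase gene *DAPK1* (-0.08) and the estrogen receptor gene *ESR1* (-0.12) had means below 0, and 0 of 5 substrates were called.

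**Figure D5:**
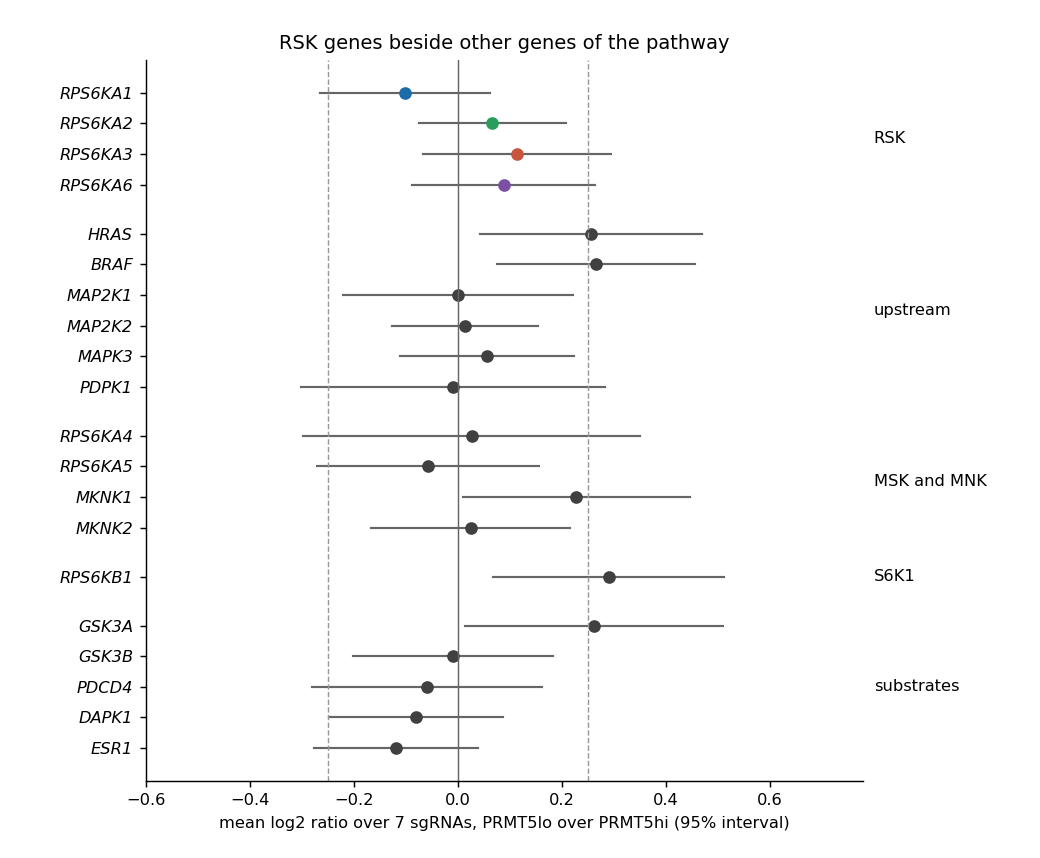
Mean log2 ratio of PRMT5lo over PRMT5hi for the 4 RSK genes and 16 other genes of the pathway, grouped by role, with the 95% interval from the authors' variances. The RSK means lie between -0.10 and 0.11, and *HRAS* (0.26) and *BRAF* (0.27) are the called genes among those drawn.

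Set against these groups, the mean over the RSK genes differed from that over the 8 upstream genes by -0.11 (95% interval -0.22 to 0.00123), which just holds 0. The RSK mean differed from the MSK and MNK genes by -0.01 (-0.16 to 0.13) and from the substrates by 0.04 (-0.08 to 0.17). The difference from the single gene *RPS6KB1* was -0.25 (-0.49 to -0.01), which alone of the 4 intervals excludes 0, without correction for their number. These intervals hold the errors of the sgRNAs and not the spread between genes, and the lists were chosen with earlier results known. They describe the values and do not test a difference between groups. The median of the RSK means was 0.08, beside 0.03 over the 18 other pathway genes and -0.0033 over all 1420 genes, of which 48.5% had a mean above 0.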

How the data were processed

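Genomic DNA from 4 PRMT5hi and 4 PRMT5lo sorted populations of Pt-resistant COV362 cells was sequenced over the sgRNA insert. Single-end reads were mapped by the authors to the designed sgRNA sequences and analysed with CB2, a beta-binomial method for pooled screens. FastQC and hg38 are named in the submitters' processing notes, and their versions, like that of CB2, were not given in the sources read. The CPM values were made by the authors as the mean over the 4 libraries of a population, and the deposited fraction is the share of reads of each sgRNA, with its variance over the libraries. No column holds a single library, so neither an SD between libraries nor a count test nor a replicate check was possible, and no exact test over libraries could be made either. The p-values rest on a t approximation for 4 against 4 libraries that share 1 transduction, so they hold no spread between independent transductions. Columns with fold changes and p-values of the authors' own comparison, per sgRNA and per gene, were not used. Column a was read as PRMT5hi and column b as PRMT5lo. The column names do not state this. It was taken from the sign in the study's legend, which the study's methods give the other way round, and the study's blots of *FER*-depleted cells run the way this reading does. *FER* was looked up after its values were seen.

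Each sgRNA was tested as in CB2 (difference of fractions over its standard error, t distribution with Welch's degrees of freedom), and one-sided p-values were combined per gene by Fisher's method and adjusted by Benjamini-Hochberg over 1420 genes, 500 control sgRNAs excluded. A gene was called at p under 0.01 and a mean log2 ratio, with a pseudocount of 1 CPM, beyond 0.25. Intervals of 95% are normal and take sgRNA errors as independent. The sgRNAs of 1 gene are not replicates of a condition. Library sizes were worked out from the sgRNAs whose variance was the smallest allowed, 12.1% in PRMT5hi and 17.6% in PRMT5lo, as 4041715 and 4779349 reads per library. Alternatives were Stouffer's method, pseudocounts of 5 and 10 CPM, a minimum of 20 CPM, centring on controls, the median over sgRNAs, variances from 20 abundance bins, leaving out sgRNAs, limma, and an adjusted p limit of 0.05. The interval of each paralog difference with binned variances was added after seeing the data. Tests were tried on simulated data first.

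The RSK genes and the pathway lists were chosen with earlier results of these data known. Named were every RSK sgRNA, the genes of the lists, and for each RSK gene the 2 genes nearest in mean log2(CPM + 1) over both populations. Results for 2 upstream genes are not reported here. Coordinates come from RefSeq on GRCh38.p14, where all 4 RSK genes matched by symbol. Without the sgRNA sequences, which were not used here, cutting of 1 paralog by another's sgRNA was not checked. Python 3.11.15, numpy 2.4.6, pandas 2.3.3, scipy 1.17.1, matplotlib 3.10.9, R 4.3.3 and limma 3.58.1 were used.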

Additional observations from a re-analysis of the deposited data

How the results depend on the processing

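Over 122 alternatives, 110 kept the direction and the side of the threshold, or for a count stayed within 1.5 times. All alternatives run for the 4 RSK gene tests left them uncalled, but many could not have done otherwise. The minimum of 20 CPM removed no RSK sgRNA, as the least abundant stood at 34.5 CPM in PRMT5hi and 36.1 CPM in PRMT5lo. Stouffer's method, variances from abundance bins and limma leave the mean ratios unchanged. The highest RSK mean was 0.11, so no RSK gene could be called under them. The tally is therefore no measure of robustness. No paired analysis was possible because the files give each population as a whole and no single libraries, and for the same reason no library could be left out. The 10 genes called toward PRMT5lo became 4 with a pseudocount of 10 CPM, 16 with limma on sgRNA ratios, which takes the sgRNAs of a gene as its units, and 2 at an adjusted p under 0.05. The 12 toward PRMT5hi became 7 with the median over sgRNAs, 28 with limma and 3 at an adjusted p under 0.05. Of the other pathway genes, 3 called toward PRMT5lo became 1 with a pseudocount of 5 CPM, 1 with 10 CPM, 1 with the median and 1 with variances from abundance bins. Those variances also took the RSK sgRNAs passing toward PRMT5hi from 0 to 2, and moved the interval of *RPS6KA1* minus *RPS6KA3* (-0.22) off 0. For the pseudocounts and the median, which change only the mean, the genes lost fell under the limit on the mean. Variances from abundance bins and limma leave the means as they were, so gene counts changed there through p. The adjusted p limit was applied without a limit on the mean. Why the p-values moved was not tested.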

Other observations

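By mean log2(CPM + 1) in PRMT5hi and PRMT5lo, the library genes nearest to each RSK gene were as follows, with distances over the 2 populations only. *RPS6KA3* lay nearest to *GPR35* (distance 0.0043) and *ABCC8* (0.013). *RPS6KA2* lay nearest to *ADRA2A* (0.0058) and *GSTCD* (0.0089), and *RPS6KA6* to *CCND2* (0.013) and *JAK2* (0.015). *RPS6KA1*, among the most abundant sets, had no gene as near, with *GC* at 0.054 and *SLCO1B3* at 0.067. None of the 4 RSK genes was among the genes nearest to another.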
